A study of Oryza sativa with 6 samples.

Results

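The genes described here held near their control level in rice roots after 2 d of water deficiency (WD) and were higher by 1.5-fold or more on the next day. They are 72 of the 63985 entries in the expression tables, where an entry is a transcribed stretch to which the authors' pipeline gave 1 expression value per group. The rule took entries that name a locus of the rice annotation, had over 4 FPKM in control roots, a ratio of WD 2 d to control between 0.75 and 1.33, and a ratio of WD 3 d to WD 2 d of at least 1.5. FPKM is a fragment count scaled to the length of the transcript and to the number of mapped fragments. The genes were thus chosen by their FPKM in the 3 groups, and no other measurement entered the choice. Entries were also limited to the first part of 7 chromosomes. There, 6.16% of the named entries with over 4 FPKM in control roots share their gene name with another entry. Beyond those positions on the same 7 chromosomes the share is 41.5%. In these stretches 2417 named entries had over 4 FPKM in control roots, and these are called eligible below. A further 272 named entries met every limit on the values but lay beyond the positions or on other chromosomes, and they were left out.

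Roots came from 4-week-old seedlings of the japonica cultivar Chilbo, grown several to a pot of soil. All plants were of this one cultivar, and the 3 groups were well-watered control plants, plants from which water was withheld for 2 d, and plants from which it was withheld for 3 d. The authors sequenced 2 libraries per group, 6 in all, and their tables hold a single FPKM per group and entry, pooled over the libraries. The spread between libraries and the depth of each are therefore unknown, no value below carries an error, and no difference could be tested. Moreover, the rule chose the genes on these same FPKM values, so their rise is a description and not a finding. In whole roots, fewer cells of a type and less RNA per cell cannot be told apart. Of 7 entries matching leaf and photosynthesis markers, none of them in the chromosome stretches used here, the most abundant had 34.4 FPKM in control, 21.4 FPKM at 2 d of WD and 14.6 FPKM at 3 d. Their summed level was 70.1 FPKM in control roots, 46.6 FPKM at 2 d and 40.1 FPKM at 3 d, and 1 of them, LOC_Os12g17600, was listed at 0 in every group. Of the other 6, 4 were below control at 3 d and 2 above it. LOC_Os09g17730, in an entry shared with LOC_Os09g17740, had 3.91 FPKM in control roots, 6.29 FPKM at 2 d and 9.96 FPKM at 3 d. LOC_Os01g41710 had 5.81 FPKM in control, 8.07 FPKM at 2 d of WD and 7.80 FPKM at 3 d. All 7 marker entries lie beyond the position limits or on a chromosome left out. Beyond the limits names were shared more often, and whether each name fits its coordinates was not checked. The part of these entries in the values below was not tested.

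Roots sense drying soil directly, and plant cells answer water loss in part through abscisic acid, which sets off transcription factor cascades and the build-up of protective proteins and solutes. Many genes respond early in such a stress, while others change only as the soil dries further. Among the regulators known from plants are MYB proteins, which bind DNA through a conserved repeat, and F-box proteins, which choose the targets of a ubiquitin ligase and so mark them for breakdown. Sulfur metabolism is also tied to stress, because cysteine is the precursor of glutathione, a main cellular antioxidant. Serine acetyltransferase makes the activated serine from which cysteine is formed.

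Over the 72 late-rising genes the FPKM ran between 4.05 and 1833 in control with a median of 14.9. After 2 d it ran between 3.95 and 2238 with a median of 15.6. After 3 d the lowest value was 7.05, the highest 4062 and the median 30.0. They were thus mostly genes of moderate level in unstressed roots, with 25 at 10 FPKM or less, 42 between 10 and 100 FPKM and 5 above 100 FPKM. The median control level of all 2417 eligible entries was 16.0 FPKM. The ratio of WD 2 d to control had a median of 1.06 among the late-rising genes, and 28 of them lay within 0.9 to 1.1. From 2 d to 3 d their ratio ran up to 2.32 with a median of 1.69, which is 0.76 on the log2 scale. It was 2 or more in 11 genes and under 1.6 in 22 genes.

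**Figure D1:**
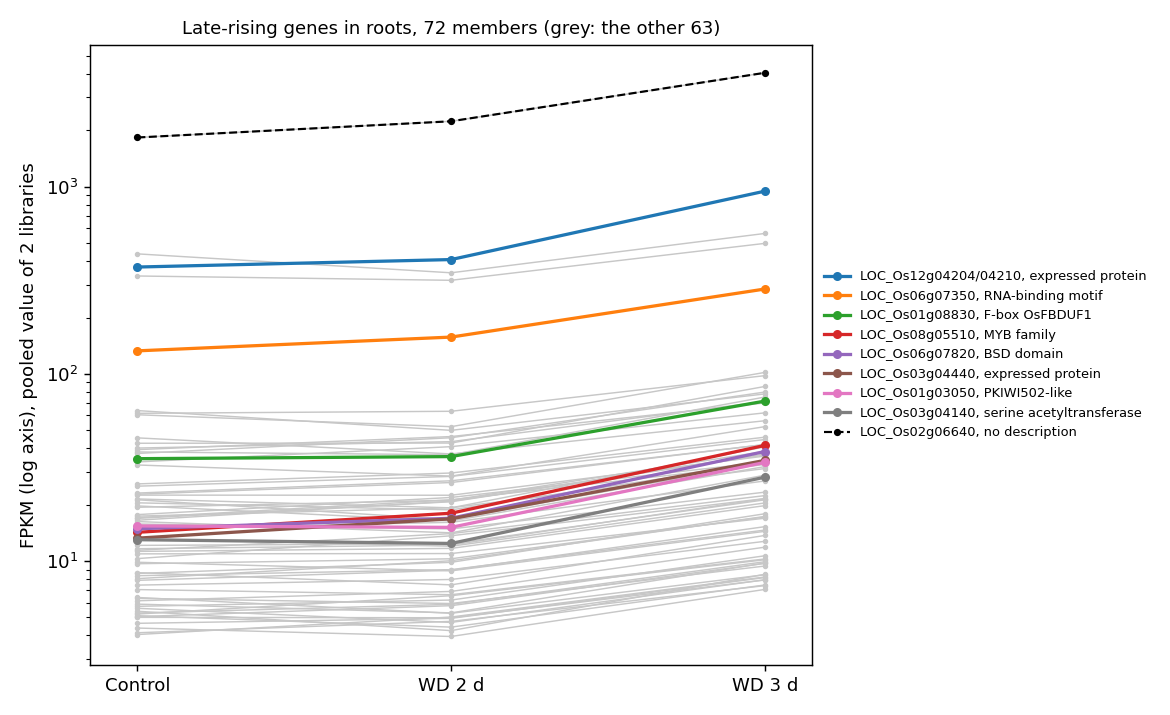
Pooled FPKM (log axis) of each of the 72 late-rising genes in control roots and after 2 d and 3 d of WD. Coloured lines are the 8 genes with a description, the dashed line is LOC_Os02g06640 and grey lines are the others. Lines run nearly level up to 2 d and turn upward to 3 d, at levels spread between 4.05 and 4062 FPKM.

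The late rise was a minority pattern at this stage of drying. Of the 2417 eligible entries, 920 (38.1%) lay within the flat window at 2 d, and 72 of these, or 7.83%, were higher by 1.5-fold or more at 3 d. In the opposite direction, 84 of the 920 (9.13%) were lower by the same factor at 3 d. The remaining 764 were flat at 2 d and stayed within 1.5-fold of that level at 3 d. Among all 2406 eligible entries with a value above 0 at 2 d, 198 (8.23%) were higher by 1.5-fold or more from 2 d to 3 d and 486 (20.2%) were lower. The share of flat genes that then rose was thus close to the share of all genes that rose on that day. Where the level at 2 d was already above the flat window, 80 of 629 entries (12.7%) were higher again at 3 d, and where it was below the window, 46 of 868 (5.30%) were. By comparison, 352 eligible entries had reached 1.5-fold of control by 2 d and held there at 3 d, and 45 had reached it and come back down.

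**Figure D2:**
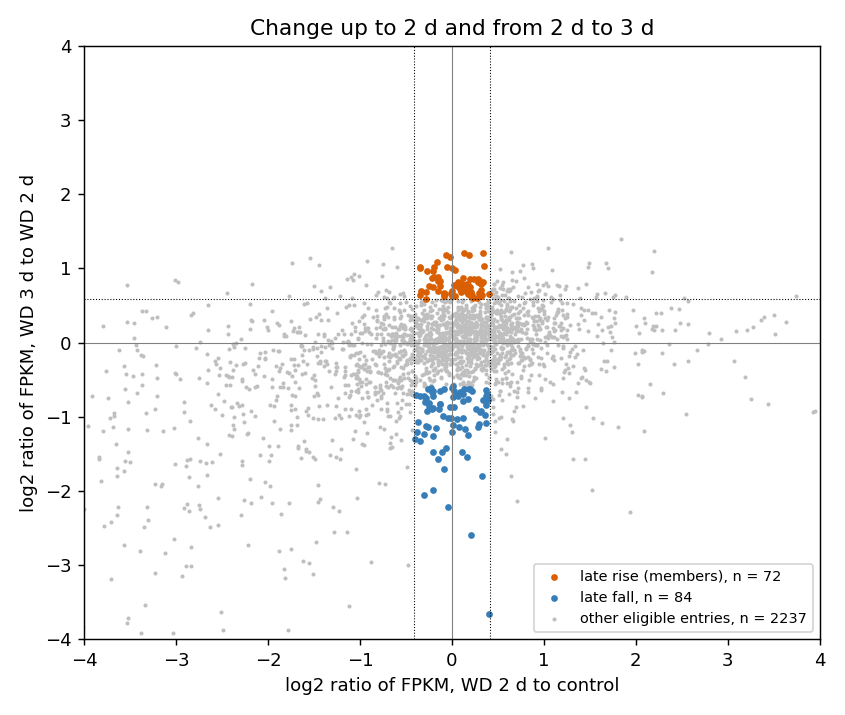
Each point is an eligible entry, with the log2 ratio of WD 2 d to control on the x axis and of WD 3 d to WD 2 d on the y axis, and dotted lines mark the limits of the rule. The 72 late-rising genes (orange) fill the upper part of the flat window opposite the 84 late-falling ones (blue). Axes stop at 4 on either side, which leaves out 90 entries and none of the 72, and 24 entries listed at 0 at 2 d or 3 d have no ratio.

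Measured against control rather than against 2 d, the 72 genes were less uniform. Their ratio of WD 3 d to control ran between 1.23 and 2.91, with a median of 1.78, or 0.83 on the log2 scale. Over all eligible entries the median was 0.919, or -0.12 on the log2 scale. The rule itself places each of the 72 above control at 3 d, so a median above that of the background was fixed by the choice. Of the 72, 17 reached 2-fold of control and 61 reached 1.5-fold. In the background, 314 of 2417 entries (13.0%) reached 2-fold at 3 d, 587 (24.3%) reached 1.5-fold, and 683 (28.3%) were at 0.5 of control or lower. The choice also raises the counts among the 72, so their excess over these shares is no finding.

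Not all of the 72 were induced in the sense of a level well above control at 3 d. At 2 d, 28 genes lay below control and 44 at or above it. All 11 genes that stayed under 1.5-fold of control at 3 d had dipped below control at 2 d, and 4 of these 11 were still inside the flat window at 3 d. The rule fixes this dip, since a step of 1.5-fold or more to such a level must start below control. LOC_Os02g04450 shows the pattern, with 63.7 FPKM in control, 49.9 FPKM at 2 d of WD and 78.1 FPKM at 3 d. Its level at 3 d was 1.57 times that at 2 d but only 1.23 times control. LOC_Os12g07980 did likewise, with 438 FPKM in control roots, 347 FPKM at 2 d and 563 FPKM at 3 d. For these genes a part of the step was a return from a dip. Of the 17 genes at 2-fold or more, 15 were at or above control at 2 d and 2 were below it.

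**Figure D3:**
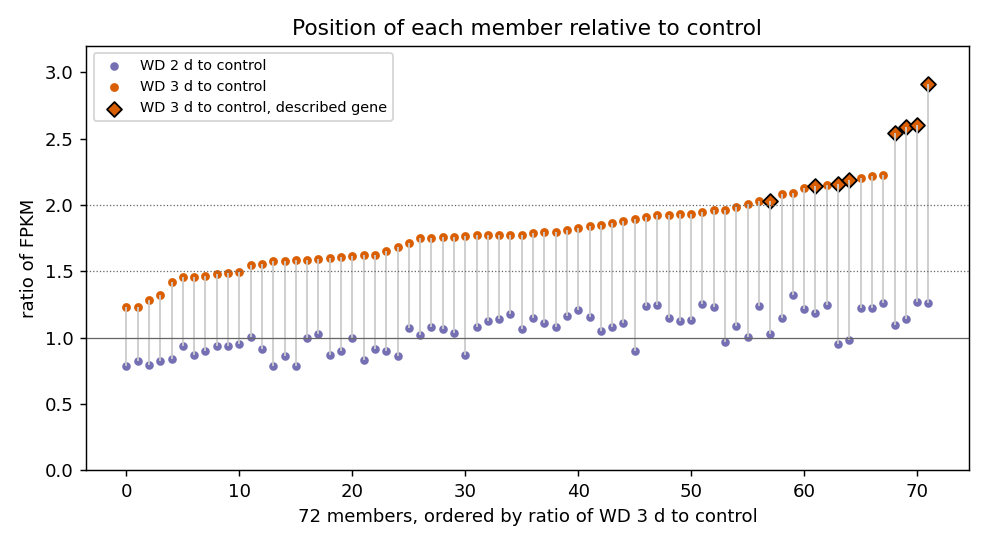
Ratio of FPKM to control for each of the 72 late-rising genes, at 3 d (orange) and at 2 d (purple), ordered by the ratio at 3 d; diamonds are genes with a description, the solid line is control level and dotted lines are 1.5-fold and 2-fold. At the left, 11 genes stay under 1.5-fold and, as the rule requires, start from below control at 2 d. At the right, 17 genes lie at 2-fold or more.

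A description was found for 8 of the 72 genes, in lists that the study drew up of genes it had called changed. Such lists hold 565 of the 2417 eligible entries (23.4%), mostly strongly changed ones, and all 8 described late-rising genes were at 2-fold of control or more at 3 d. The other 64 carry a locus name only, and 9 of them also reached 2-fold. The described genes are therefore not a sample of the whole, and the roles below cover 11.1% of the genes. By the rule, any eligible gene flat at 2 d and at 2-fold of control or more at 3 d is itself late-rising. Other described genes that rose therefore had to leave the flat window by 2 d, and their earlier timing below is no finding.

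Of the regulators of transcription, 1 gene described as a MYB family transcription factor had the highest ratio of WD 3 d to control among the 72. LOC_Os08g05510, placed among MYB-related factors, lies on chromosome 8 at 2933786 to 2940197 in the authors' coordinates on the IRGSP 1.0 genome. It had 14.2 FPKM in control, 18.0 FPKM at 2 d of WD and 41.5 FPKM at 3 d. That is 2.91 times control at 3 d, of which a factor of 1.26 was already present at 2 d. The same stretches hold 5 other eligible genes described as MYB, and all 5 had left the flat window by 2 d, 4 of them above it and 1 below. For the 4 above it, this follows from how described genes were listed. LOC_Os08g06240, in an entry shared with LOC_Os08g06250, had 27.0 FPKM in control roots, 84.1 FPKM at 2 d and 83.8 FPKM at 3 d, so its level at 3 d was near that at 2 d. LOC_Os01g04930 had 39.8 FPKM in control, 15.5 FPKM at 2 d of WD and 21.4 FPKM at 3 d, below control at both times. LOC_Os02g04640, with a Myb-like DNA-binding domain, had 8.05 FPKM in control roots, 99.9 FPKM at 2 d and 122 FPKM at 3 d. This was the largest ratio to control at 3 d among the 6 MYB genes, 15.1. LOC_Os05g10690 had 23.7 FPKM in control, 62.5 FPKM at 2 d of WD and 44.9 FPKM at 3 d. LOC_Os01g09280, described as a myb-related activator, had 6.30 FPKM in control roots, 17.6 FPKM at 2 d and 19.6 FPKM at 3 d.

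LOC_Os06g07820 encodes a protein with a BSD domain, a small helical domain first recognised in transcription factors and in synapse-associated proteins. The gene lies on chromosome 6 at 3792146 to 3798623. It had 14.9 FPKM in control roots, 16.9 FPKM at 2 d and 38.5 FPKM at 3 d, a ratio of 2.27 between 3 d and 2 d. No other eligible entry was described with this domain.

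In amino acid metabolism, LOC_Os03g04140 encodes a putative serine acetyltransferase, the enzyme that feeds serine into cysteine synthesis. On chromosome 3 at 1891832 to 1897309, it had 13.0 FPKM in control, 12.4 FPKM at 2 d of WD and 28.0 FPKM at 3 d. Its level at 3 d was 2.26 times that at 2 d and 2.16 times control. LOC_Os06g05700, described as a cysteine synthase, the enzyme of the next reaction, went the other way, with 17.5 FPKM in control roots, 5.33 FPKM at 2 d and 3.70 FPKM at 3 d. Of the other described genes in the serine, glycine and cysteine class, LOC_Os06g04380, an aminomethyltransferase of the kind that acts in glycine breakdown and in an entry shared with LOC_Os06g04390, had 16.4 FPKM in control, 173 FPKM at 2 d of WD and 219 FPKM at 3 d. LOC_Os08g03870, a 2-aminoethanethiol dioxygenase that oxidises a small thiol, had 5.05 FPKM in control roots, 19.8 FPKM at 2 d and 26.9 FPKM at 3 d. Both were above control by 2 d, whereas the acetyltransferase gene was not, a contrast that follows from how described genes were listed.

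LOC_Os01g03050 is described as a fruit protein PKIWI502 and classed with ferredoxin oxidoreductases, flavin enzymes that pass electrons between ferredoxin and pyridine nucleotides. It lies on chromosome 1 at 1159158 to 1179372. It had 15.4 FPKM in control, 15.1 FPKM at 2 d of WD and 33.6 FPKM at 3 d, or 2.19 times control. The same coordinates are listed for LOC_Os01g03060 with LOC_Os01g03070, an entry with 53.2 FPKM in control roots, 76.3 FPKM at 2 d and 81.2 FPKM at 3 d.

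In protein turnover, the one described gene was OsFBDUF1, LOC_Os01g08830, an F-box protein with a domain of unknown function. It lies on chromosome 1 at 4431531 to 4438317 and had 35.2 FPKM in control, 36.1 FPKM at 2 d of WD and 71.5 FPKM at 3 d. Its ratio of WD 3 d to control was 2.03, of which almost none was present at 2 d. Among the 6 other described F-box genes in these stretches, 2 were above control and 4 below it at 3 d. OsFBA1 (LOC_Os02g10600) had 5.40 FPKM in control roots, 11.96 FPKM at 2 d and 20.4 FPKM at 3 d. OsFBL27 (LOC_Os06g06050) had 13.7 FPKM in control, 31.6 FPKM at 2 d of WD and 42.7 FPKM at 3 d. Both had thus passed 2-fold of control a day before OsFBDUF1 did, although the listing of described genes already required them to be outside the flat window by then. OsFBL7 (LOC_Os02g10700) had 243 FPKM in control roots, 67.7 FPKM at 2 d and 55.3 FPKM at 3 d. OsFBK12 (LOC_Os03g07530) had 58.7 FPKM in control, 34.2 FPKM at 2 d of WD and 22.4 FPKM at 3 d. LOC_Os12g01760, with leucine-rich repeats beside its F-box, had 21.3 FPKM in control roots, 7.75 FPKM at 2 d and 8.37 FPKM at 3 d. These 3 were below control at both times. So was LOC_Os03g08850, described as AUXIN SIGNALING F-BOX 2, an auxin receptor subunit, with 13.3 FPKM in control, 6.80 FPKM at 2 d of WD and 5.497 FPKM at 3 d.

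**Figure D4:**
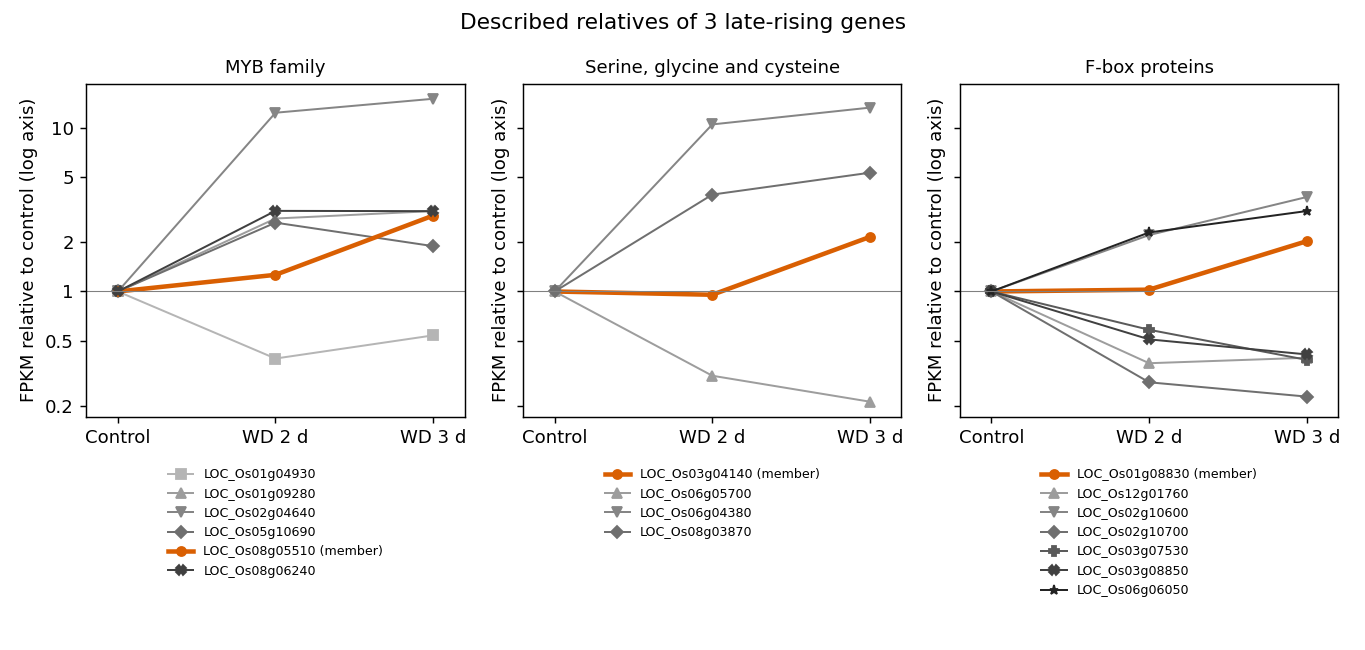
FPKM relative to control (log axis) in control roots and after 2 d and 3 d of WD, for the late-rising MYB, serine acetyltransferase and F-box genes (orange) and the described eligible genes of the same family or class (grey, by marker). The orange lines stay near 1 up to 2 d and reach 2.91, 2.16 and 2.03 at 3 d. Every relative drawn had left the flat window by 2 d, which for rising relatives was fixed by how described genes were listed.

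An RNA-binding gene was the most abundant with a described domain. LOC_Os06g07350, an RNA-binding motif protein, had 133 FPKM in control, 157 FPKM at 2 d of WD and 284 FPKM at 3 d. It lies on chromosome 6 at 3536549 to 3540238 and reached 2.14 times control. Of 3 described genes with an RNA recognition motif, LOC_Os03g04520 had 18.2 FPKM in control roots, 34.7 FPKM at 2 d and 59.9 FPKM at 3 d. LOC_Os06g03690, in an entry shared with LOC_Os06g03700, had 13.6 FPKM in control, 27.2 FPKM at 2 d of WD and 35.6 FPKM at 3 d. LOC_Os02g03040 had 99.2 FPKM in control roots, 35.4 FPKM at 2 d and 35.6 FPKM at 3 d. None of these 3 was within the flat window at 2 d, which for those that rose follows from how described genes were listed.

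The last 2 of the 8 described genes are named only as expressed proteins, that is, proteins of unknown function. LOC_Os12g04204, in an entry shared with LOC_Os12g04210 on chromosome 12 at 1771794 to 1777703, had the highest ratio of WD 3 d to WD 2 d of all, 2.32. It had 372 FPKM in control, 408 FPKM at 2 d of WD and 947 FPKM at 3 d. LOC_Os03g04440, on chromosome 3 at 2054183 to 2063350, had 13.2 FPKM in control roots, 16.8 FPKM at 2 d and 34.5 FPKM at 3 d.

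Across function groups matched by words in the descriptions, few late-rising genes could appear. Only described ones could be matched, and only 8 of the 72 (11.1%) have a description. One gene, the F-box gene, was among the 25 described eligible entries for protein degradation, and 1, the MYB gene, was among the 37 for transcription factors. None was among the 4 described entries for abscisic acid and dehydration, the 6 for chaperones, the 35 for kinases and phosphatases, the 21 for transporters, the 12 for carbohydrates and cell wall, the 17 for lipids or the 24 for redox enzymes. None was matched among the 13 for RNA and translation either, whose words did not include the RNA-binding description above, nor among the 2 for membrane traffic or the 12 for transposons. Of the 37 described transcription factors, 19 were at 2-fold of control or more at 3 d and 14 at 0.5 or lower. Of the 25 described protein degradation genes, 11 were at 2-fold or more and 12 at 0.5 or lower. The described set was made by the study's own calls on these samples, so these counts are not independent evidence of a direction, and over all 565 described entries 254 were at 2-fold or more and 263 at 0.5 or lower.

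Of the genes with no description, LOC_Os02g06640 on chromosome 2 was by far the most abundant. It had 1833 FPKM in control, 2238 FPKM at 2 d of WD and 4062 FPKM at 3 d, or 2.22 times control. This single gene held 47.8% of the summed FPKM of the 72 at 3 d. The sum was 4305 FPKM in control roots, 4694 FPKM at 2 d and 8491 FPKM at 3 d. Without it the other 71 summed to 2472 FPKM in control, 2456 FPKM at 2 d of WD and 4428 FPKM at 3 d. Since each gene was chosen for a step of at least 1.5-fold, a step in either sum was fixed by the choice. LOC_Os03g06240 had 333 FPKM in control roots, 316 FPKM at 2 d and 498 FPKM at 3 d, a level at 3 d just under 1.5 times control.

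Among the undescribed genes, 5 had ratios of WD 3 d to WD 2 d of 2 or more. LOC_Os03g04050 had 21.5 FPKM in control, 19.2 FPKM at 2 d of WD and 40.7 FPKM at 3 d. LOC_Os06g06450, in an entry shared with LOC_Os06g06470, had 42.6 FPKM in control roots, 42.7 FPKM at 2 d and 85.6 FPKM at 3 d. Its level at 3 d was 2.01 times each of the earlier levels, which is the plainest case of a level that was flat and then higher. LOC_Os02g02770, in an entry shared with LOC_Os02g02780, had 38.3 FPKM in control, 37.0 FPKM at 2 d of WD and 75.2 FPKM at 3 d. LOC_Os05g10414 had 16.2 FPKM in control roots, 14.1 FPKM at 2 d and 28.7 FPKM at 3 d. LOC_Os03g09220 had 21.2 FPKM in control, 16.6 FPKM at 2 d of WD and 33.6 FPKM at 3 d. The last of these had dipped the furthest at 2 d of all 72, to 0.784 of control. By level at 3 d, a further 3 undescribed genes were among the 10 highest. LOC_Os05g04340 had 60.5 FPKM in control roots, 52.2 FPKM at 2 d and 102 FPKM at 3 d. LOC_Os08g03360 had 37.6 FPKM in control, 45.6 FPKM at 2 d of WD and 80.0 FPKM at 3 d. Its near neighbour LOC_Os08g03390 had 61.5 FPKM in control roots, 63.1 FPKM at 2 d and 97.8 FPKM at 3 d.

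The limits of the rule cut through a continuous range. At the step from 2 d to 3 d, LOC_Os02g07450 with a ratio of 1.504 and LOC_Os01g08270 with 1.512 lay just inside, and LOC_Os02g05360 with 1.494 and LOC_Os06g05060 with 1.493 just outside. At the lower edge of the flat window, LOC_Os03g09220 and LOC_Os02g04450, both with a ratio of WD 2 d to control of 0.784, lay inside, and LOC_Os02g08120 with 0.696 and LOC_Os02g09670 with 0.690 outside. At its upper edge, LOC_Os02g06520 with 1.32 and LOC_Os03g04440 with 1.27 lay inside, and LOC_Os05g11770 and LOC_Os06g05890, both with 1.36, outside. In control level, LOC_Os08g05620 with 4.05 FPKM and LOC_Os08g12720 with 4.14 FPKM lay inside, and LOC_Os01g17070 with 3.91 FPKM and LOC_Os08g03590 with 3.51 FPKM outside. The gap at the lower edge was wide, while at the step genes lay on both sides within 0.01 of the limit.

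The rule did not use the size of a gene, its place within the stretches or its neighbours. The median listed span was 6025 bp for the 72 genes and 6286 bp for all eligible entries. Of the 72 entries, 10 (13.9%) named more than 1 locus, against 319 of 2417 (13.2%). In both respects the late-rising genes were like the rest. By chromosome they made up between 1.5% of the eligible entries, 3 of 200 on chromosome 12, and 3.73%, 14 of 375 on chromosome 2, around 2.98% in all. Chromosome 1 held 10 of 446, chromosome 3 held 9 of 284, chromosome 5 held 12 of 351, chromosome 6 held 12 of 421 and chromosome 8 held 12 of 340.

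A few of the genes were close neighbours. Within 10 kb of each other lay 6 pairs of the 72. In 5 of these pairs the 2 entries were listed at different coordinates, and the 5 pairs involved 9 genes. Among the 84 late-falling entries 3 pairs lay within 10 kb, and in 2 of these the entries were listed at different coordinates. On chromosome 2, LOC_Os02g03575, LOC_Os02g03590 and LOC_Os02g03600 followed each other with gaps of 5167 bp and 715 bp. LOC_Os02g03575 had 5.59 FPKM in control, 4.70 FPKM at 2 d of WD and 7.94 FPKM at 3 d. LOC_Os02g03590 had 14.9 FPKM in control roots, 16.1 FPKM at 2 d and 26.8 FPKM at 3 d. LOC_Os02g03600 had 5.04 FPKM in control, 5.77 FPKM at 2 d of WD and 9.71 FPKM at 3 d. The ratios of WD 3 d to WD 2 d of these 3 were 1.69, 1.66 and 1.68. The rule chose on this ratio, and its median over the 72 was 1.69, so their likeness in it is no finding. Their ratios of WD 2 d to control differed, at 0.84, 1.08 and 1.14 in the same order. Whether these neighbours behaved alike was not tested.

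On chromosome 5, LOC_Os05g08380 and LOC_Os05g08390 were 681 bp apart. LOC_Os05g08380 had 6.32 FPKM in control roots, 5.93 FPKM at 2 d and 9.40 FPKM at 3 d. LOC_Os05g08390 had 17.7 FPKM in control, 21.9 FPKM at 2 d of WD and 33.8 FPKM at 3 d. LOC_Os01g03050, the PKIWI502 gene, lay 3033 bp from LOC_Os01g03090, which had 33.8 FPKM in control roots, 40.8 FPKM at 2 d and 61.9 FPKM at 3 d. LOC_Os08g03360 and LOC_Os08g03390 were 3641 bp apart. Both genes of this pair and of the PKIWI502 pair share their listed coordinates with other entries. These gaps therefore lie between listed stretches. The remaining pair, LOC_Os02g05244 and the entry of LOC_Os02g04945 with LOC_Os02g05400, is listed at the same 306954 bp of chromosome 2, at 2312149 to 2619102, and its distance cannot be given. The other neighbours were set beside the remaining eligible entries, with the late-rising genes left out of both sets. Any neighbour that was flat at 2 d and then rose was thus left out by the rule, which lowers both shares below. The 125 eligible entries within 10 kb of a late-rising gene, themselves not late-rising, had a median ratio of WD 3 d to WD 2 d of 0.998, and 6.4% of them were higher by 1.5-fold or more. Among the other 2220 eligible entries the median was 0.956 and the share 5.34%.

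Some of the genes shared their listed coordinates with another eligible entry. Each entry had its own FPKM, but whether reads were counted by strand is not stated. How far the reads of such entries were kept apart is therefore unknown. Of the 72, 14 were in this position, against 532 of 2417 eligible entries (22.0%), and 2 of the 14 lay in the long stretch of chromosome 2 above, which lists 12 such partners. The other 12 had 13 partners, of which 5 were at 0.5 of control or lower at 3 d, 2 at 2-fold or more and 6 between. The late-rising LOC_Os03g04440 lay with LOC_Os03g04430, which had 161 FPKM in control, 47.8 FPKM at 2 d of WD and 40.9 FPKM at 3 d. LOC_Os08g03360 lay with LOC_Os08g03350, which had 116 FPKM in control roots, 44.1 FPKM at 2 d and 47.1 FPKM at 3 d. LOC_Os02g02770 lay with LOC_Os02g02750, which had 50.7 FPKM in control, 18.8 FPKM at 2 d of WD and 15.8 FPKM at 3 d. LOC_Os01g13760, with 16.9 FPKM in control roots, 20.7 FPKM at 2 d and 37.3 FPKM at 3 d, lay with LOC_Os01g13770, which had 62.0 FPKM in control, 24.9 FPKM at 2 d of WD and 16.5 FPKM at 3 d. In these 4 places the larger entry in control roots was at 0.5 of control or lower by 2 d. The late-rising entry was within the flat window at that time by the rule. The 2 partners at 2-fold or more went the other way. LOC_Os08g05630, beside LOC_Os08g05620, had 9.95 FPKM in control, 32.8 FPKM at 2 d of WD and 36.0 FPKM at 3 d. LOC_Os08g03380, beside LOC_Os08g03390, had 22.2 FPKM in control roots, 34.8 FPKM at 2 d and 44.9 FPKM at 3 d. Without the entries at shared coordinates, 58 late-rising genes were left.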

How the data were processed

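Reads were trimmed by the authors with cutadapt and Trim Galore and mapped to the IRGSP 1.0 genome with TopHat, and Cuffdiff was run over features of the RGAP annotation. The deposited values used here are FPKM, 1 per group and entry, pooled by the authors over 2 libraries. Versions of these tools, and how libraries were scaled, were not given in the sources used. The authors' fold changes, test statistics, p-values and q-values were not used. With 1 value per group no test could be run, so ratios of FPKM were computed without a pseudocount, and counts past a fold stand beside the same counts over all eligible entries. The members and lists were chosen with earlier results of these data known.

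Members named are the 10 with the highest ratio of WD 3 d to WD 2 d, the 10 with the highest FPKM at 3 d, described ones and those beside each limit. Neighbours and genes sharing coordinates were named after their values were seen. Descriptions came from the study's supplementary gene lists. None of the 83 loci matched the reference gene list (assembly ASM3414082v1), so sequences were not analysed here. The selection was tested on simulated data. Python 3.11.15, pandas 2.3.3, numpy 2.4.6 and matplotlib 3.10.9 were used. Alternatives changed the control limit, pseudocount, scaling, window, step and entry types.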

Additional observations from a re-analysis of the deposited data

How the results depend on the processing

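No paired analysis was possible because the tables give a single pooled value per group, and for the same reason no library could be left out and limma could not be run. Promoter motifs were not run, as no member locus matched a promoter. With no replicate spread, a value was taken as moved when it changed by over 1.5-fold. The number of late-rising genes, 72, became 47 with control FPKM over 10, 153 with no control limit, 11 with a step of at least 2 and 151 with a step of at least 1.3. The number at 2-fold of control or more, 17, became 26 with control FPKM over 1, 64 with no control limit, 29 with ratios centred on the eligible medians, 8 with a window of 0.8 to 1.2, 35 with a window of 0.67 to 1.5, 7 with a step of at least 2 and 11 without entries at shared coordinates, an alternative chosen after seeing the data. Centring took the number of genes to 86, of which 70 were among the 72. The median log2 ratio of WD 3 d to control was between 0.69 and 1.11 in every alternative. In all 60 recomputations for the 20 genes named by ratio, level or description, the ratio kept its direction and moved by at most 0.12 on the log2 scale. The direction was fixed in advance, since an added constant cannot reverse a ratio and centring raised every log2 ratio by the same 0.12. The depth is unknown, so the counting error of no value could be given.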

Other observations

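The entries that were flat at 2 d and lower at 3 d included several with a described enzyme. LOC_Os02g08100, described with an AMP-binding domain, had 277 FPKM in control roots, 240 FPKM at 2 d and 60.5 FPKM at 3 d. LOC_Os05g04510, an S-adenosylmethionine synthetase, which makes the main methyl donor of the cell, had 29.4 FPKM in control, 36.9 FPKM at 2 d of WD and 10.6 FPKM at 3 d. LOC_Os06g06980, a caffeoyl-CoA O-methyltransferase of the kind that acts in lignin synthesis, had 19.0 FPKM in control roots, 17.5 FPKM at 2 d and 6.31 FPKM at 3 d. These were chosen after their values were seen. Over all 84 late-falling entries the median ratio of WD 3 d to WD 2 d was 0.536, and 17 of the 84 had a description.

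Below the control limit, 81 of 2657 named entries with a control value above 0 met both ratios, and 14 of them had over 4 FPKM at 3 d. The highest was LOC_Os08g03590, with 3.51 FPKM in control, 4.34 FPKM at 2 d of WD and 8.16 FPKM at 3 d. LOC_Os05g07710 had 1.88 FPKM in control roots, 2.40 FPKM at 2 d and 5.79 FPKM at 3 d. Of the 95 entries in these stretches that name no locus and had over 4 FPKM in control, 0 met the limits on the values.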
